A study of Mus musculus with 8 samples.

Results

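Fatty acids enter macrophages, are carried through the cytosol and are joined to coenzyme A with the help of several kinds of protein. Genes for such proteins and the nuclear receptor gene Pparg, 10 genes in all, were followed here. They were found by symbol in the gene table: the scavenger receptor Cd36, the fatty acid transport proteins Slc27a1 and Slc27a4, the fatty acid binding proteins Fabp4 and Fabp5, the long-chain acyl-CoA synthetases Acsl1, Acsl3, Acsl4 and Acsl5, and the nuclear receptor Pparg. They are 10 of 56980 genes in the table, and all 10 were among the 12186 genes with enough counts to be tested. Transcripts were counted in 4 GrnKO and 4 WT cultures of bone-marrow-derived macrophages from C57/Bl6 mice. GrnKO cells came from mice with a constitutive knockout of Grn, which encodes progranulin, a secreted and lysosomal glycoprotein, and WT cells from wild-type mice; the deleted part of Grn is not stated. Cells of both genotypes had been grown from marrow with M-CSF at 50 ng/mL for 7 days, frozen, thawed, given the vehicle DMSO and cultured for 3 days. Each biological replicate was grown from marrow pooled over several mice, so the spread between replicates is a spread between pools, and the cells are a culture model without a tissue around them. The question addressed was what constitutive Grn loss does to the macrophage transcriptome.

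A fatty acid outside the cell can be bound by CD36 or taken in with the help of a transport protein (FATP, encoded by Slc27a genes). Inside, a fatty acid binding protein (FABP) keeps it soluble and shuttles it between membranes, the nucleus and lipid droplets. An acyl-CoA synthetase (ACSL) then activates it to acyl-CoA, the form that is oxidised, desaturated or built into triglyceride, cholesteryl ester and phospholipid. PPARγ, encoded by Pparg, is a fatty acid-sensing transcription factor that binds DNA together with RXR, and Fabp4 and Cd36 are among its best known targets in macrophages.

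Library totals ran from 5828180 to 7944860 counts in GrnKO and from 7413220 to 8768770 in WT cultures, and RNA integrity numbers were 9.9 or 10. Levels below are CPM, counts of tags at the 3′ end of transcripts relative to the library total, scaled by TMM. The assay gives about 1 tag per transcript whatever its length. Grn stood at 13.5 ± 0.69 CPM in GrnKO and 1665 ± 266 CPM in WT cultures (SD, n = 4 each), so it was low in every library labelled as knockout. All 10 macrophage markers listed, among them Csf1r and Cd68, were detected, with a summed level of 6420 to 8141 CPM in GrnKO and 5643 to 9635 CPM in WT cultures, and 1 of them fell (Aif1). Their median log2 fold change was -0.37. At an unadjusted p under 0.05, 6 were lower and 1 was higher by edgeR, and DESeq2 called 5 lower. Of all 12186 tested genes, 1071 were lower and 1078 higher by edgeR at that threshold, and DESeq2 called 329 lower and 536 higher. Neutrophil markers summed to 19.9 to 32.3 CPM in GrnKO against 53.1 to 165 CPM in WT cultures. Of the 12, 4 had enough counts to be tested and 3 fell (S100a8, S100a9 and Ngp). All 4 were lower at an unadjusted p under 0.05 by edgeR, and DESeq2 called 4 lower. Osteoclast markers summed to 283 to 345 CPM in GrnKO against 98.8 to 125 CPM in WT cultures, and most of the sum was the proton pump subunit Atp6v0d2 (295 ± 31.0 CPM in GrnKO and 96.0 ± 11.7 CPM in WT cultures). Of the 8, Atp6v0d2 and the protease Ctsk rose, all 5 tested had a positive log2 fold change, and DESeq2 called 3 higher. Over all 12186 tested genes, 5583 had a positive log2 fold change. The phosphatase Acp5 stood at 2.13 to 6.24 CPM in GrnKO and 0.409 to 2.08 CPM in WT cultures (edgeR adjusted p = 0.064), and the untested Calcr, Oscar and Ocstamp at 0.382 CPM or less in every culture. The part of these cell types in the values below was not tested, and in bulk RNA fewer cells of a type cannot be told apart from less RNA per cell.

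Of the 10 genes, 4 rose in GrnKO macrophages (Fabp4, Fabp5, Acsl3 and Cd36), none fell and 6 were not called. The call was an edgeR quasi-likelihood test with a Benjamini-Hochberg adjusted p under 0.05 over all tested genes. It took 4.25% of all tested genes, 2.79% as higher and 1.46% as lower. In 6 of the 10 every GrnKO culture lay above every WT culture, and in the remaining 4 the genotypes overlapped; over all tested genes the genotypes stood apart with GrnKO above in 6.88%, and in either direction in 12.0%. The median log2 fold change was 0.44 over the 10 genes and -0.03 over all tested genes. The 10 genes were chosen from gene families whose values in this genotype comparison were known (their GrnKO over WT fold changes), so these counts and the p-values below describe the genes and are no independent support for a change of the pathway. At an unadjusted p under 0.05, which 17.6% of all tested genes reached, 7 of the 10 were higher by edgeR and none was lower. DESeq2 called 5 of the 10 higher (7.10% of all genes called), limma-trend 4 (4.41%), and neither called any lower.

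**Figure D1:**
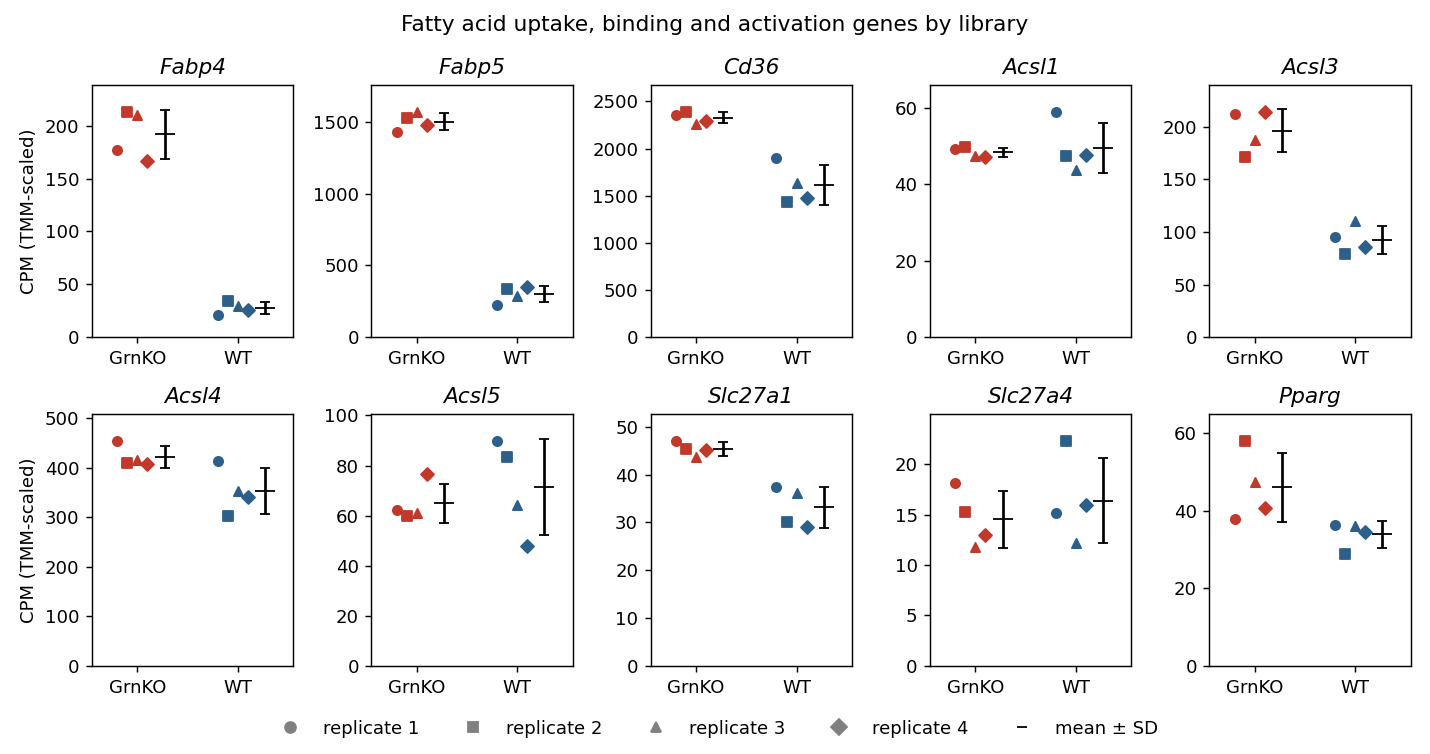
Levels of the 10 genes in every culture, in CPM on TMM-scaled library sizes (y axes start at 0 and differ between panels). Symbols mark replicates 1 to 4 of each genotype and the black bar is the mean ± SD; the groups stand apart for Fabp4, Fabp5, Cd36, Acsl3, Slc27a1 and Pparg and overlap for Acsl1, Acsl4, Acsl5 and Slc27a4.

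Of the 10 genes, the binding proteins had the largest fold changes. Fabp4 (ENSMUSG00000062515.4), the FABP of adipocytes and macrophages, stood at 176.6, 213.0, 210.5 and 166.8 CPM in GrnKO replicates 1 to 4, against 21.02, 34.2, 29.1 and 25.7 CPM in WT replicates 1 to 4. The groups were far apart: the lowest GrnKO culture stood 4.87 times as high as the highest WT culture. The means were 192 ± 23.5 CPM in GrnKO and 27.5 ± 5.57 CPM in WT cultures (SD, n = 4 each), a 6.97-fold rise (log2 fold change 2.80 ± 0.16 SE, edgeR adjusted p = 5.9e-06). Fabp5 (ENSMUSG00000027533.11), the epidermal-type FABP that macrophages also make, stood at 1431, 1530, 1572 and 1482 CPM in GrnKO replicates 1 to 4, against 224, 336, 285 and 346 CPM in WT replicates 1 to 4. The 4 GrnKO cultures lay close together, with a coefficient of variation of 4.04%, against 18.9% among the WT cultures. The log2 fold change was 2.34 ± 0.14 (SE), a 5.05-fold rise with an edgeR adjusted p of 5.9e-06.

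Fabp4 and Fabp5 are sister genes on mouse chromosome 3, and the stretch where their coding sequences are most alike is shown because it bears on whether short tags can tell them apart. These are 90 bases of the GENCODE M21 coding sequences, positions 267 to 356 of Fabp4 and 273 to 362 of Fabp5 counted from the start codon, with capitals where the aligned bases are identical (64 of 90).
Fabp4: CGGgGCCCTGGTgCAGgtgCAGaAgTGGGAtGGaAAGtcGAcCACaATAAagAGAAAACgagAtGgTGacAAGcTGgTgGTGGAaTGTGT
Fabp5: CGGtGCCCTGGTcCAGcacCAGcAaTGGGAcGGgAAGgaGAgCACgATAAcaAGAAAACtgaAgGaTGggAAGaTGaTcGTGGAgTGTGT
Over 399 aligned coding positions the genes shared 61.4% of bases, and the longest exact run in common was 12 bases, far under the read length of 75 bases. No stretch of 75 bases in the last 500 bases of the longest coding transcript of any of the 10 genes occurred in a transcript of another gene in GENCODE M21. Farther from the end, Fabp5 shared 110 of 913 such stretches (12.05%) with the processed pseudogenes Gm14328 and Gm6166, and Acsl3 shared 133 of 3876 (3.43%) with Utp14b. Reads with mismatches were not considered, so the split of counts between these genes and their copies remains uncertain.

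The FABP genes of chromosome 3 lie together, in the order Fabp5, Pmp2, Fabp9, Fabp4 and Fabp12 in GENCODE M21, with 2 predicted genes (Gm9833 and Gm37389) between them. Pmp2, the FABP of myelin, which was looked up after the values of its neighbours were seen, had 0 counts in all 8 libraries, and so did Fabp12. Fabp9, the testis form, had 1 count in a WT library and 0 elsewhere. A count of 0 allows up to 3 counts, or 0.328 to 0.533 CPM, depending on the library. Within this gene cluster, Fabp4 and Fabp5 had the counts to be tested and the neighbouring FABP genes did not. Of FABP genes elsewhere in the genome, Fabp3, the heart form, stood at 11.4 to 16.9 CPM in GrnKO and 7.35 to 11.1 CPM in WT cultures; these did not overlap, but it was not called (log2 fold change 0.63 ± 0.19 SE, edgeR adjusted p = 0.10). Fabp7, the brain form, had 9 to 20 counts in GrnKO and 4 to 25 counts in WT libraries. Fabp1, Fabp2 and Fabp6 had at most 1 count per library.

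Fabp4 and Fabp5 were also set against each other within each library, a measure that scaling between libraries cannot alter, and Fabp5 was lower relative to Fabp4 in GrnKO libraries. There were 8.10, 7.18, 7.47 and 8.88 Fabp5 counts per Fabp4 count in GrnKO replicates 1 to 4, against 10.6, 9.83, 9.80 and 13.5 in WT replicates 1 to 4. The ratio was lower in every GrnKO library than in any WT library. Fabp5 made up 88.7 ± 0.93% of the summed counts of the pair in GrnKO and 91.5 ± 1.10% in WT libraries (SD, n = 4 each). This ratio comes from the same comparison as the fold changes and was not tested.

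Fabp4 and Pparg are also genes of fat cells. Of 7 adipocyte markers, Cfd was at 0 in every culture, and Adipoq, Lep and Plin1 were at 0.178, 0.127 and 0.355 CPM or less. The list's summed level was 10.6 to 18.2 CPM in GrnKO and 13.6 to 18.8 CPM in WT cultures, nearly all of it Lipe, hormone-sensitive lipase, which was the only one with enough counts to be tested and was not called.

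Among the uptake genes, Cd36 rose and the transport proteins were not called. Cd36 (ENSMUSG00000002944.16), a class B scavenger receptor for fatty acids and oxidised lipoproteins, stood at 2357, 2388, 2258 and 2296 CPM in GrnKO replicates 1 to 4, against 1902, 1437, 1637 and 1472 CPM in WT replicates 1 to 4. The GrnKO cultures varied by 2.51% around their mean and all lay above the highest WT culture, replicate 1. The log2 fold change was 0.53 ± 0.10 (SE), 1.44-fold, with an edgeR adjusted p of 0.015. The call of Cd36 was not made without GrnKO replicate 2 (adjusted p = 0.062), GrnKO replicate 3 (0.052) or WT replicate 3 (0.056).

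Slc27a1 (ENSMUSG00000031808.8), or FATP1, stood at 47.0, 45.4, 43.6 and 45.1 CPM in GrnKO replicates 1 to 4, against 37.4, 30.0, 36.3 and 29.0 CPM in WT replicates 1 to 4. The groups did not overlap, but the log2 fold change of 0.45 ± 0.12 (SE) was not called by edgeR (adjusted p = 0.065). It was called without WT replicate 1 (adjusted p = 0.027) and by DESeq2 (adjusted p = 0.018). Slc27a4 (ENSMUSG00000059316.3), or FATP4, stood at 18.2, 15.3, 11.7 and 13.0 CPM in GrnKO replicates 1 to 4, against 15.1, 22.3, 12.2 and 15.9 CPM in WT replicates 1 to 4. These ranges overlapped (log2 fold change -0.17 ± 0.21 SE, edgeR adjusted p = 0.73). With 77 to 185 counts per library it had the fewest counts of the 10 genes. The other FATP genes, Slc27a2, Slc27a3, Slc27a5 and Slc27a6, had at most 4 counts in any library.

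The acyl-CoA synthetases did not change in proportion. Acsl3 (ENSMUSG00000032883.16), a synthetase of the endoplasmic reticulum and lipid droplets, stood at 212, 171, 188 and 214 CPM in GrnKO replicates 1 to 4, against 94.8, 79.2, 110.4 and 86.1 CPM in WT replicates 1 to 4. The groups were clearly apart, and the log2 fold change was 1.08 ± 0.13 (SE), a 2.12-fold rise with an edgeR adjusted p of 7.1e-04. Acsl4 (ENSMUSG00000031278.13), which prefers arachidonic acid and is known for its role in ferroptosis, stood at 455, 411, 416 and 409 CPM in GrnKO replicates 1 to 4, against 415, 304, 354 and 342 CPM in WT replicates 1 to 4. WT replicate 1 lay within the GrnKO range, and Acsl4 was not called (log2 fold change 0.26 ± 0.11 SE, edgeR adjusted p = 0.25).

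Acsl1 (ENSMUSG00000018796.14), the synthetase linked to inflammatory activation of macrophages, was nearly level between the genotypes. It stood at 49.3, 49.7, 47.4 and 47.3 CPM in GrnKO replicates 1 to 4, against 59.0, 47.5, 43.8 and 47.8 CPM in WT replicates 1 to 4 (log2 fold change -0.03 ± 0.12 SE, edgeR adjusted p = 0.92). Acsl5 (ENSMUSG00000024981.7), a synthetase of mitochondria and the endoplasmic reticulum, stood at 62.1, 60.0, 61.2 and 76.6 CPM in GrnKO replicates 1 to 4, against 89.9, 83.4, 64.3 and 47.9 CPM in WT replicates 1 to 4. The WT cultures spanned the whole GrnKO range (log2 fold change -0.14 ± 0.18 SE, edgeR adjusted p = 0.76). Acsl6, the remaining family member, had at most 2 counts in any library.

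Promoters of 8 of the 10 genes were matched by symbol in a RefSeq table (GRCm38.p6), with 13 start sites; Fabp4 and Fabp5 were not matched. Those of Acsl3 and Cd36 are shown because these genes rose. Each is the 250 bases before the start site, 5′ to 3′ on the gene's strand, and capitals mark 3 motifs on either strand. The first is AGGTCA, the half-site that nuclear receptors such as PPARs bind. The next is the GC box, spelled GGGCGG. The last is the CCAAT box, spelled as it is named.
Acsl3, chr1:78657575-78657824, + strand: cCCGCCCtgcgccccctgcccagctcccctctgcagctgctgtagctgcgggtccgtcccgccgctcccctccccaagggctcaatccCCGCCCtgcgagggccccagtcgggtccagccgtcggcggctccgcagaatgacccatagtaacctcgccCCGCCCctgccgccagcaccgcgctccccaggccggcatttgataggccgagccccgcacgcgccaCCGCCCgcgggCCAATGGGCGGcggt
Cd36, chr5:17835897-17836146, - strand: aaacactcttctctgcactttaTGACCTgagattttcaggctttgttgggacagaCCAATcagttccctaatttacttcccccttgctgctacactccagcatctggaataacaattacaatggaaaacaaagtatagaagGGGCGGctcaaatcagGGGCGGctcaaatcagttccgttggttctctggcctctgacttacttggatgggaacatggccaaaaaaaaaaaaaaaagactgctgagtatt
The pair differ in base composition. The Acsl3 window is 75.6% G and C and holds 28 CpG dinucleotides, more than 92.4% of the 32851 promoter windows in the table, whereas that of Cd36 is 43.2% G and C with 3 CpG.

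The Acsl3 window holds 5 GC boxes and 1 CCAAT box, which lies directly before a GC box, and no AGGTCA. That of Cd36 holds 2 GC boxes within a repeated stretch, 1 CCAAT box and 1 AGGTCA. Among all 32851 windows, 32.7% held GGGCGG, 33.8% CCAAT and 14.0% AGGTCA; among the 13 windows of the 10 genes these were in 9, 8 and 3. The PPAR-RXR direct repeat, a pair of AGGTCA with 1 base between them, was in 0.0335% of all windows and in none of the 13, and the lysosomal gene E-box TCACGTGA was in 0.785% and in none of the 13. The sterol response letters TCACNCCAC were in 1.05% of all windows and in 1 of the 13, at a start of Acsl1, and TATAAA was in 12.4% and in 1, at a start of Pparg. A match in these windows describes letters only, and sites farther away were not searched.

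**Figure D2:**
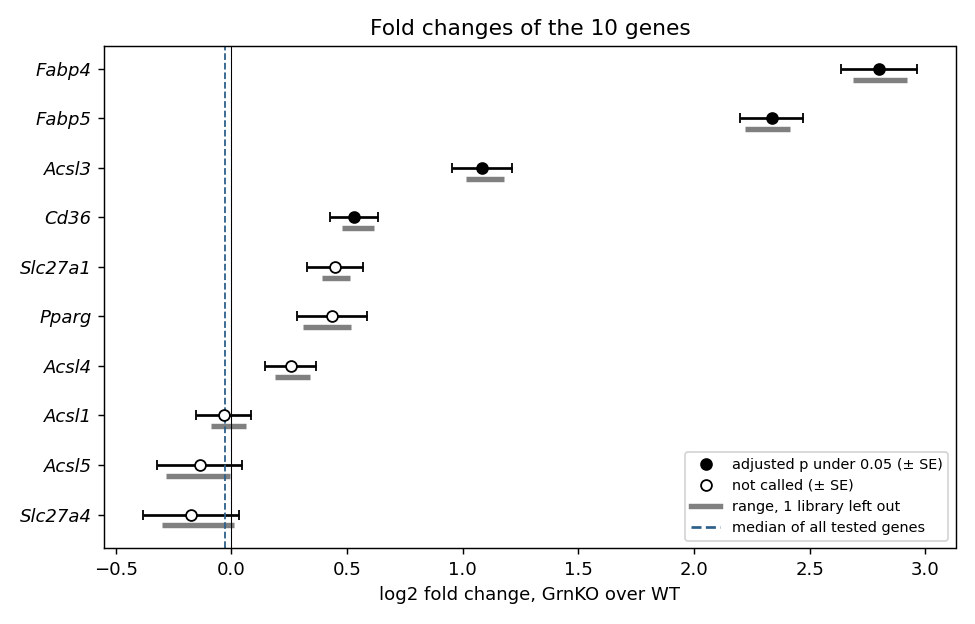
Log2 fold change of each gene, GrnKO over WT, with its SE from the edgeR fit (black), and the range of the fold change when 1 library at a time is left out (grey bars). Filled points were called at an adjusted p under 0.05; Fabp4 (2.80), Fabp5 (2.34) and Acsl3 (1.08) lie farthest from the median of all tested genes (-0.03, dashed line).

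The makeup of the ACSL counts shows the same unequal change without any scaling between libraries. Acsl3 held 27.3, 24.7, 26.4 and 28.7% of the summed counts of the 4 synthetases in GrnKO replicates 1 to 4, against 14.4, 15.4, 19.3 and 16.4% in WT replicates 1 to 4. Counting error was small beside this difference: the 95% Wilson interval was 23.4 to 26.1% in the lowest GrnKO library and 18.2 to 20.4% in the highest WT library, and such intervals cover counting error only. The share of Acsl1 was 6.63 ± 0.40% in GrnKO and 8.74 ± 0.74% in WT libraries (SD, n = 4 each) and did not overlap between the groups. The shares of Acsl4 (57.7 ± 2.06% in GrnKO and 62.3 ± 2.57% in WT libraries) and Acsl5 (8.87 ± 0.97% in GrnKO and 12.6 ± 3.06% in WT libraries) overlapped. Acsl4 held the largest share in all 8 libraries. The summed level of the 4 genes was 692 to 778 CPM in GrnKO and 514 to 658 CPM in WT cultures. Shares of 1 total must add up, so a higher share of Acsl3 lowers those of the others, and these values were not tested.

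**Figure D3:**
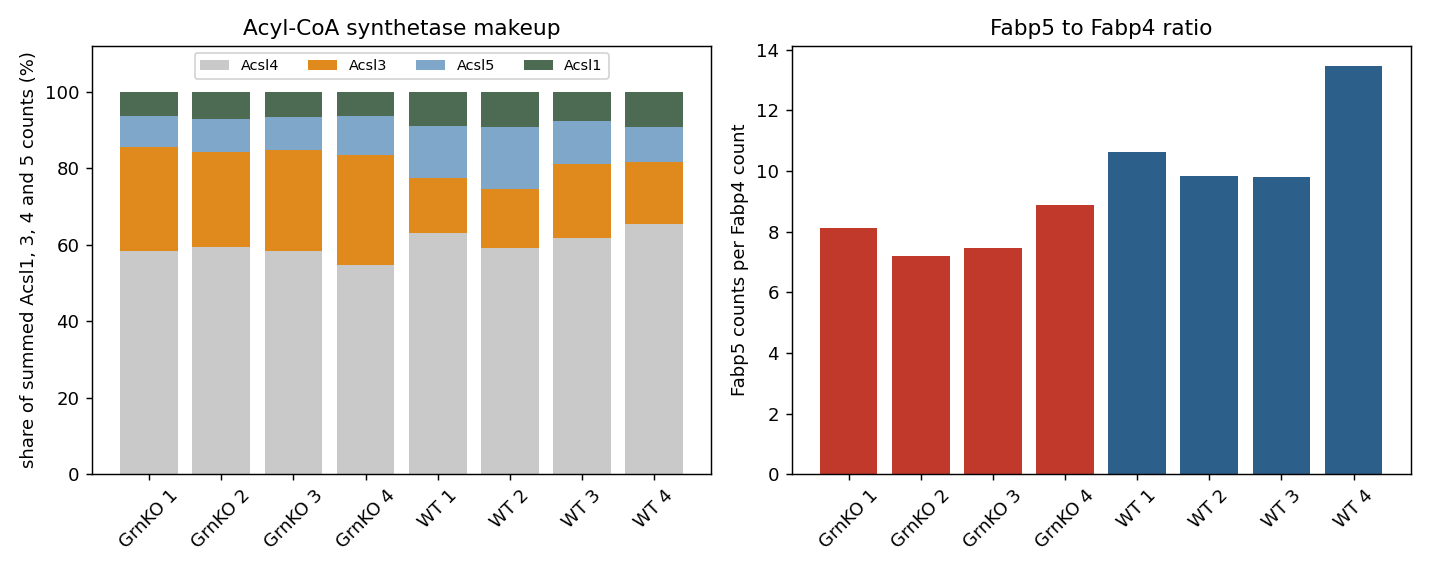
Left, share of each synthetase in the summed Acsl1, Acsl3, Acsl4 and Acsl5 counts of each library, in percent; right, Fabp5 counts per Fabp4 count in each library. The share of Acsl3 is 24.7 to 28.7% in GrnKO and 14.4 to 19.3% in WT libraries, and the Fabp5 to Fabp4 ratio is 7.18 to 8.88 in GrnKO and 9.80 to 13.5 in WT libraries.

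Pparg (ENSMUSG00000000440.13) stood at 38.0, 58.0, 47.4 and 40.8 CPM in GrnKO replicates 1 to 4, against 36.2, 28.9, 36.1 and 34.6 CPM in WT replicates 1 to 4. The groups did not overlap, though GrnKO replicate 1 and WT replicate 1 lay close together. The log2 fold change was 0.44 ± 0.15 (SE), and Pparg was not called (edgeR adjusted p = 0.15), nor was it in any alternative fit. It was the only one of the 10 genes that varied more among GrnKO cultures (19.4%) than among WT cultures (10.1%). The median variation of tested genes with a WT mean of 10 CPM or more was 10.9% among GrnKO and 16.3% among WT cultures.

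WT replicate 1 stood at an edge of the WT range for most of the 10 genes. It was the highest WT culture for 6 of them (Cd36, Acsl1, Acsl4, Acsl5, Slc27a1 and Pparg) and the lowest for both FABP genes. The same culture had the highest summed level of neutrophil markers (165 CPM) and the lowest of macrophage markers (5643 CPM). Its stromal and endothelial markers summed to 34.6 CPM, against 9.67 to 14.2 CPM in the other WT cultures. The part of these differences in the values was not tested. Without WT replicate 1, 5 of the 10 genes were called, the 4 above and Slc27a1, while 7.64% of all tested genes were.

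The genes most alike to Fabp4, Fabp5 and Pparg over the 8 libraries were found by Pearson's r of log2(CPM + 1). For Fabp4 the most alike were Atp6v0d2 (r = 0.995), Fabp5 (0.993) and the stress gene Gadd45a (0.992). For Fabp5 they were Gadd45a (0.998), Fabp4 (0.993) and the lysosomal chloride transporter Clcn7 (0.992). These values mostly restate that each gene differs between the genotypes, as the libraries form 2 groups. For Pparg the most alike were Slc25a5-ps (0.967), the signalling scaffold Malt1 (0.964) and the mitochondrial ferredoxin Fdx2 (0.960). Slc25a5-ps and Fdx2 averaged 5.25 CPM or less in either genotype.

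Genes around these steps were taken from 7 lists with 150 distinct genes, of which 113 were tested. Calls were made for 14, all higher in GrnKO, and the remaining 99 stayed under the threshold; the median log2 fold change was 0.10. At an unadjusted p under 0.05, 29 were higher and 4 lower by edgeR, against 1078 higher and 1071 lower of all 12186 tested genes. DESeq2 called 20 higher and 1 lower, against 536 higher and 329 lower of all tested genes. With limma-trend 15 were higher and none lower, against 364 higher and 174 lower of all tested genes. The 14 that rose are 12.4% of those tested, against 2.79% of all tested genes, and they were also read with earlier results known. The count was 6 without GrnKO replicate 2 and also without GrnKO replicate 3, 8 without GrnKO replicate 1 and without WT replicate 3, and 22 without WT replicate 1. In the same order, these fits called 2.15, 2.19, 2.57, 2.33 and 7.64% of all tested genes, against 4.25% with all libraries. The count over the lists thus moved together with the count over all tested genes.

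In the list of other family and carrier genes, 1 of 10 tested rose, where 2.79% of all tested genes did (list median log2 fold change 0.26). It was Dbi, the acyl-CoA binding protein, which holds the product of the synthetases: 870 ± 79.2 CPM in GrnKO and 606 ± 16.1 CPM in WT cultures (SD, n = 4 each), a log2 fold change of 0.52 ± 0.09 with an edgeR adjusted p of 0.0092. Among 15 tested PPAR and RXR receptors and coregulators, none was called by edgeR, DESeq2 or limma-trend, and at an unadjusted p under 0.05 by edgeR 1 was higher and 2 lower (median log2 fold change -0.17). The coactivator Ncoa3 averaged 85.0 ± 5.50 CPM in GrnKO and 102.8 ± 9.44 CPM in WT cultures (SD, n = 4 each, edgeR adjusted p = 0.21). Ppara, the receptor of oxidative tissues, had too few counts to be tested and averaged 0.159 CPM in GrnKO and 0.0315 CPM in WT cultures. Both means lie under the 0.328 to 0.533 CPM that 3 counts amount to, depending on the library.

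Of 18 tested PPAR target genes other than Fabp4 and Cd36, 4 rose (2.79% of all tested genes did) and 14 were left uncalled, with none lower (median 0.11). They were the sterol exporter Abcg1 (194 ± 12.7 CPM in GrnKO and 99.9 ± 21.5 CPM in WT cultures, log2 fold change 0.96 ± 0.15), the β-oxidation subunit Hadhb (0.68 ± 0.14), the lipid droplet coat protein Plin2 (0.50 ± 0.11) and the lipid droplet protein Hilpda (0.60 ± 0.14), with edgeR adjusted p of 0.0042 to 0.027. Hadhb shared 57.2% of its 75-base stretches with processed pseudogenes, though none in the last 500 bases, so its counts are uncertain. Of these 4, Abcg1 was called with any 1 library left out. The calls of Hadhb, Plin2 and Hilpda were each not made without at least 4 of the 8 libraries, with adjusted p up to 0.077, 0.10 and 0.10.

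Genes that release fatty acids or use acyl-CoA were mostly not called, and of all tested genes 2.79% were called higher. Of 18 thioesterases and lipases, 2 rose and 16 were left uncalled, with none lower (median -0.02): Mgll, monoacylglycerol lipase (48.9 ± 9.16 CPM in GrnKO and 3.34 ± 1.08 CPM in WT cultures, SD, n = 4 each, edgeR adjusted p = 6.2e-06), and Lipa, the lysosomal acid lipase (1110 ± 67.4 CPM in GrnKO and 793 ± 70.4 CPM in WT cultures, edgeR adjusted p = 0.016). Of 27 fatty acid oxidation genes, 2 rose and 25 were left uncalled, with none lower (median 0.10): Abcd3, a peroxisomal importer of fatty acids (log2 fold change 0.55 ± 0.10, edgeR adjusted p = 0.011), and Hadhb. The call of Lipa was not made without GrnKO replicates 1 or 2 or WT replicate 3 (adjusted p up to 0.074), nor that of Abcd3 without GrnKO replicate 3 (0.057).

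Of 18 esterification and remodelling genes, 3 rose and 15 were left uncalled, with none lower (median 0.03), while DESeq2 called 1 lower. They were the cholesterol acyltransferase Soat1 (837 ± 82.2 CPM in GrnKO and 504 ± 102 CPM in WT cultures, edgeR adjusted p = 0.014), the lysophospholipid acyltransferase Lpcat3 (53.1 ± 5.97 CPM in GrnKO and 32.4 ± 5.76 CPM in WT cultures, adjusted p = 0.021) and Plin2. Soat1 was not called without GrnKO replicates 2 or 3 (adjusted p up to 0.060), nor Lpcat3 without GrnKO replicates 1, 2 or 3 or WT replicate 3 (up to 0.080). Of 14 fatty acid synthesis and desaturation genes, 4 rose and 10 were left uncalled, with none lower, and all 14 had a positive log2 fold change (median 0.53). Of all 12186 tested genes, 2.79% were called higher and 5583 had a positive log2 fold change. The desaturases Scd1 (log2 fold change 3.40 ± 0.33) and Scd2 (2.43 ± 0.33) rose most, with edgeR adjusted p of 1.9e-04 and 0.0015; they share 3.24% and 1.80% of their 75-base stretches with other Scd genes or a pseudogene, none in the last 500 bases. Scd2 was not called with no filter on low counts (adjusted p = 0.056). The calls of fatty acid synthase, Fasn (0.95 ± 0.24), and the elongase Elovl7 (1.38 ± 0.34) were each not made without 6 of the 8 libraries (adjusted p up to 0.14 and 0.13). With no scaling factors, Fasn (adjusted p = 0.073), Elovl7 (0.059) and Hilpda (0.064) were not called, which left 2 calls in the synthesis list.

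**Figure D4:**
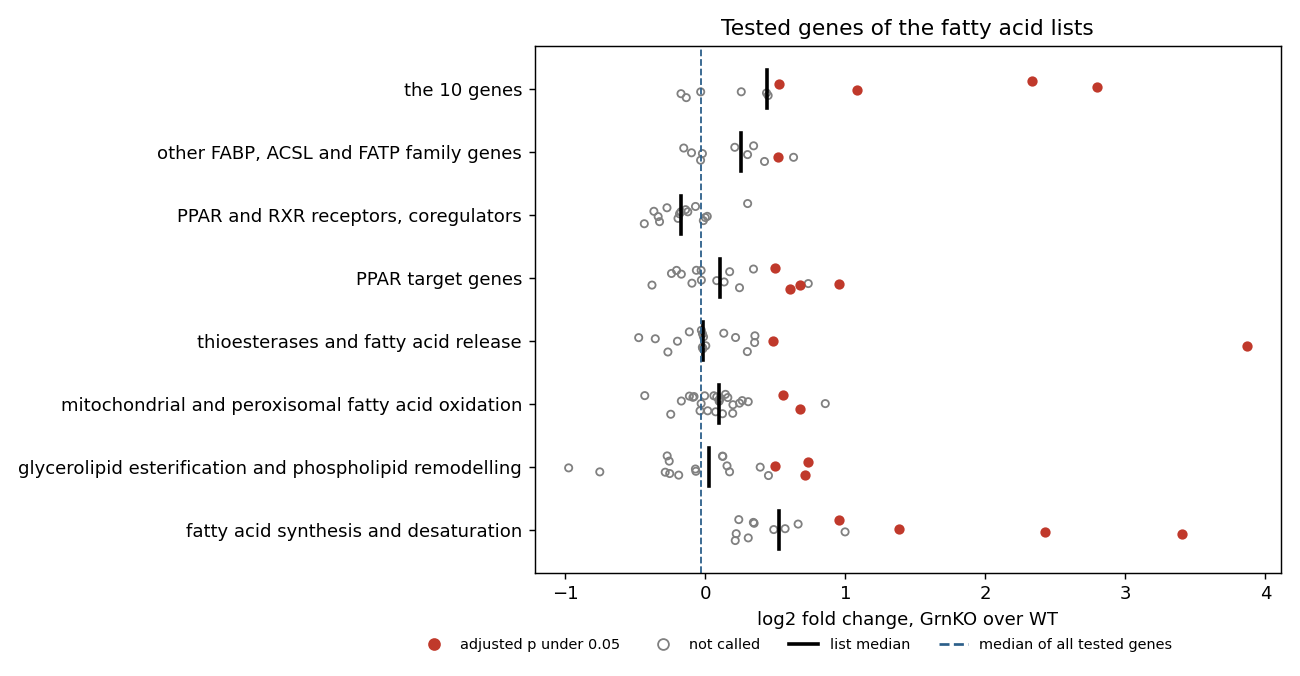
Log2 fold change, GrnKO over WT, of every tested gene in the 10-gene set and in 7 lists of related genes (1 point per gene, vertical jitter only; black bars are list medians). Red points were called at an adjusted p under 0.05; every called gene lies to the right of 0, with Mgll (3.87), Scd1 (3.40) and Fabp4 (2.80) farthest.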

How the data were processed

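Estimated counts per gene were deposited by the authors. The submitters' processing notes name Salmon, with no version, and the mouse build GRCm39. Libraries carried UMIs so that PCR duplicates could be removed, per the labels' protocols. Of the non-zero estimated counts, 36.4% were not whole (tolerance 1e-06), and they were rounded. The deposited log2 CPM values were not used.

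Counts were fitted with edgeR 4.0.16 in R 4.3.3 (filterByExpr, TMM, robust quasi-likelihood F test, GrnKO over WT); SEs follow from F. CPM use TMM-scaled library sizes. Alternatives were other scaling factors, other filters, DESeq2 1.42.0, limma-trend (limma 3.58.1) on log2(CPM + 1), the replicate number as a block, each library left out and an adjusted p under 0.01. The procedure was tested on simulated data. No library repeated another of its genotype (chi-square per degree of freedom at least 2.91), and pairs across genotypes were not compared in this way.

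The genes and lists were chosen with earlier results of these data known. Named genes are the 10, Grn, called list genes (at most 4 per direction and list, or 2 with the smallest p where none was called) and the 3 most alike to each of Fabp4, Fabp5 and Pparg, predicted gene models left out. One gene that this rule names is not reported here. Of the remaining marker lists, T and NK, B and dendritic cell genes summed to at most 2.63 CPM in any culture. Of 8 erythroid and megakaryocyte genes, only Pf4 had enough counts to be tested, and it fell. The 8 stromal and endothelial genes summed to 26.8 to 38.0 CPM in GrnKO and 9.67 to 34.6 CPM in WT cultures. Only 1 of the 8 was tested. That gene was not called by edgeR, DESeq2 or limma-trend, and was higher at an unadjusted p under 0.05 by edgeR. Sequences came from RefSeq (GRCm38.p6) and GENCODE M21; their build differs from the authors', and no count was read by their coordinates.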

Additional observations from a re-analysis of the deposited data

Results flagged for a closer look

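In each group of 4 cultures, the gap between the highest or lowest culture and its nearest neighbour was compared with the group's range, over 20 groups (10 genes, 2 genotypes); chance marks about 1 group in 20. In 2 groups the gap was above Dixon's 95% critical value. Acsl4 stood at 455 CPM in GrnKO replicate 1, against 409 to 416 CPM in the other GrnKO cultures (gap 0.850 of the range). Acsl5 stood at 76.6 CPM in GrnKO replicate 4, against 60.0 to 62.1 CPM in the other GrnKO cultures (gap 0.874 of the range). Neither gene was called with or without these libraries: without GrnKO replicate 1 the edgeR adjusted p of Acsl4 was 0.41, and without GrnKO replicate 4 that of Acsl5 was 0.66.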

How the results depend on the processing

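Fabp4, Fabp5 and Acsl3 kept their direction and call in all 15 alternatives, with log2 fold changes of 2.69 to 2.92, 2.22 to 2.42 and 1.01 to 1.18. Pparg, Acsl4 and Acsl5 were called in none. The count of called genes among the 10 was 3 to 5 with a library left out. Acsl1 and Slc27a4, not called, changed sign without WT replicate 1 and without WT replicate 2: with a library left out, their log2 fold changes ran from -0.089 to 0.063 and from -0.30 to 0.010. The cause was not tested. The number of genes called over the whole table, 518, was 918 with no filter, 865 by DESeq2, 209 at an adjusted p under 0.01 and 267 to 942 with a library left out. With no scaling factors it was 562, split into 281 higher and 281 lower, against 340 higher and 178 lower with TMM, and the median change over the whole table was -0.10 in place of -0.03 (log2). The count over the 7 lists, 14, was 6 to 22 with a library left out. The share of Acsl3 differed by 9.73 to 11.4 percentage points and that of Fabp5 by -3.17 to -2.25 with a library left out. With the replicate number as a block, 220 genes, 3 of the 10 and 4 of the list genes were called, and Cd36 had an adjusted p of 0.073. GrnKO cultures were correlated with WT cultures on log2(CPM + 1) of all tested genes, after each gene's genotype mean was subtracted. These values compare deviations from the genotype means and not whole profiles. Cultures of the same number had correlations of -0.08, -0.17, 0.18 and -0.44 for replicates 1 to 4. Those of different numbers ran from -0.34 to 0.44. The labels do not say what the number stands for, and whether such cultures share a preparation was not tested. Counts were fewest for Slc27a4, with 77 to 185 per library, and the part of depth in its spread was not tested.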
